A study of Mus musculus with 24 samples.

Results

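The genes described here code for the subunits of the proteasome, the subunits of its regulatory caps, and the factors that assemble it. They were taken by symbol: a probe was used when the platform annotation gave it 1 gene and that symbol began with Psma to Psmg followed by a digit. This gave 42 genes on 44 probes, of 8973 named genes among 17440 features measured in all. Psmd3 and Psmc3ip had 2 probes each, which were averaged, and the other members had 1. Psmc3ip, a cofactor of meiotic recombination, and Psme3ip1 match by symbol but are no part of the complex, which left 40 genes for the accounts by role. Psmb3, Psmb9, Psmd2, Psmd9, Psmd13, Psme2, Psme3 and Psme4 were not analysed here as single genes.

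The RNA came from mouse embryoid bodies, aggregates in which embryonic stem cells differentiate in culture. Cells with Flk1 on the surface (Flk1+) and cells without it (Flk1-) were separated at 84 h, 95 h and 8 d of differentiation. Flk1 is the receptor for vascular endothelial growth factor coded by Kdr, and it marks mesoderm that can give blood and endothelium. The 6 groups had 4 samples each, and every sample, labelled with Cy5, was hybridised with a common Cy3 reference made from whole mouse pups on a two-colour Agilent array, 24 arrays in all. The labels name no treatment and no genetic change for any group. The cell line, the mouse strain and the number of embryoid bodies behind a sample are not given in the sources used here. The labels do not say that samples of a group came from separate cultures, so a p-value here rests on a spread between arrays that could be technical. In a bulk sample, fewer cells of a type and less RNA per cell cannot be told apart.

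Values are log ratios of a sample to the pup reference, read as log2 of Cy5 over Cy3 after setting each array's median to 0. A value of 0 therefore means a level equal to the reference relative to the other features on that array, and a difference of 1 between groups means a doubling. The sources used here give neither the log base nor the direction. For the direction, 10 of 10 measured genes of newborn pup tissue had means below 0 (median -2.83), and 10 of 12 pluripotency genes had means above 0 (median 0.62). The lowest correlation between any pair of arrays was 0.43. Differences are given with their standard error (SE) from 1 limma fit over all arrays, and a gene was called at a Benjamini-Hochberg adjusted p under 0.05 over the 17440 features. The sort itself was visible in Kdr, whose Flk1+ level was 1.91 above Flk1- at 84 h (limma, adjusted p = 1.39e-05), 2.93 above at 95 h (adjusted p = 1e-07) and 1.89 above at 8 d (adjusted p = 0.000155).

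The proteasome degrades proteins tagged with ubiquitin. Its 20S core is a stack of rings, outer ones of alpha subunits (Psma genes) that gate the entrance and inner ones of beta subunits (Psmb genes), of which Psmb5, Psmb6 and Psmb7 carry the constitutive active sites. The 19S cap recognises ubiquitin, unfolds the substrate with a ring of ATPases (Psmc genes) and holds receptors and a deubiquitinase among its non-ATPase subunits (Psmd genes). In cells exposed to interferon-gamma, and in many immune cells without it, Psmb8, Psmb9 and Psmb10 replace the constitutive active subunits in newly made cores, and this immunoproteasome favours peptides that bind MHC class I. Human embryonic stem cells are known for high proteasome activity, and immunoproteasome subunits have been found in human pluripotent cells.

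The promoters of 3 catalytic subunits are shown because the results turn on them: the inducible subunits Psmb8 and Psmb10, and Psmb5, the constitutive subunit whose place Psmb8 takes. Each runs 5′ to 3′ from 250 bases before to 50 bases after the annotated start, on RefSeq's GRCm38.p6, and capitals mark a match to 1 of 3 motifs.
Psmb8, chr17:34197945-34198244, plus strand: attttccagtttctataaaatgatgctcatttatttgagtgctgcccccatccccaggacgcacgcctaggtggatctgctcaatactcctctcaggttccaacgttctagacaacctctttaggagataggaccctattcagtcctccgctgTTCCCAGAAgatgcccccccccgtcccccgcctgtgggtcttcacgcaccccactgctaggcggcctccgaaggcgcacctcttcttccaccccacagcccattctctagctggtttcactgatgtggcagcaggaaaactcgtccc
Psmb10, chr8:105938343-105938642, minus strand: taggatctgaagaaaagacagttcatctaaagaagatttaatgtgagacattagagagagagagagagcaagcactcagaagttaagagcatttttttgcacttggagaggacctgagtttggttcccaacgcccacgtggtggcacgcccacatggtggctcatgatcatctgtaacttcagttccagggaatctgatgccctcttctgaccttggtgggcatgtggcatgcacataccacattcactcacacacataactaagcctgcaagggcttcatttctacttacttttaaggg
Psmb5, chr14:54617946-54618245, minus strand: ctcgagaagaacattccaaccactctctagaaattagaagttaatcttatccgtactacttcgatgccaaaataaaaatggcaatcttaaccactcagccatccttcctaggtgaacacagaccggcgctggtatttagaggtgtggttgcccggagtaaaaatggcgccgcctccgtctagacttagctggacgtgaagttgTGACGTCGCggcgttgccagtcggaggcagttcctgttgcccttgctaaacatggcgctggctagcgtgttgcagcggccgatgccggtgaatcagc
The 3 motifs, searched on both strands, were the core of the interferon-stimulated response element (GAAANNGAA), the STAT site TTCNNNGAA and the antioxidant response element core TGACNNNGC. Psmb8 held TTCCCAGAA from -97 to -89 relative to the start, Psmb5 held TGACGTCGC from -47 to -39, and Psmb10 held no match in this window. Over the members, 34 of 42 genes had an entry, with 37 promoters. TTCNNNGAA was in 2 of the 37 (Psmb8 and Psmg1), against 8.3% of all 32851 promoters. TGACNNNGC was in 4 (Psmb5, Psmb6, Psmc6 and Psmd12), against 12.4% of all promoters, and GAAANNGAA was in 5, against 8.6%. Matches of different motifs could share bases. A match describes letters and not a bound site. In the annotation Psmb8 lies on chromosome 17 between Tap1 and Tap2, the genes of the peptide transporter, with Psmb9 on the far side of Tap1.

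Psmb8, the interferon-inducible subunit that replaces Psmb5, was lower in Flk1+ than in Flk1- cells at 84 h and 95 h and fell in both sorts by 8 d. At 84 h its Flk1+ arrays read -0.48, -0.69, -0.40 and -0.96, and its Flk1- arrays read 0.85, 0.50, 0.45 and 0.56. Every Flk1+ array lay below the reference and every Flk1- array above it. The difference was -1.22 (SE 0.18), a 2.33-fold lower level in Flk1+ cells (limma, adjusted p = 0.000127). At 95 h the Flk1+ arrays read -0.36, -0.63, -0.09 and -0.41, and the Flk1- arrays 0.66, 0.07, 1.24 and 0.88. The groups again did not overlap, although the Flk1- arrays were spread more widely (SD 0.49 against 0.22). The difference was -1.09 (SE 0.18, 2.12-fold, limma adjusted p = 0.00101). At 8 d both sorts lay far below the reference, at -1.29, -1.25, -1.56 and -1.34 in Flk1+ cells and at -0.95, -1.0, -1.0 and -1.12 in Flk1- cells. Here too no arrays overlapped, but the difference of -0.34 (SE 0.18) was not called (limma, adjusted p = 1.0), and it was called with array weights (adjusted p = 0.0102) and with only the groups compared in the fit (adjusted p = 0.0359).

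The order of the 6 group means of Psmb8 was therefore Flk1- at 95 h (0.71 ± 0.49, SD, n = 4), Flk1- at 84 h (0.59 ± 0.18), Flk1+ at 95 h (-0.37 ± 0.22), Flk1+ at 84 h (-0.63 ± 0.25), Flk1- at 8 d (-1.02 ± 0.07) and Flk1+ at 8 d (-1.36 ± 0.14). Within a sort, 84 h and 95 h did not differ beyond their spread, with differences of 0.26 in Flk1+ cells (limma, adjusted p = 0.306) and 0.12 in Flk1- cells (adjusted p = 0.835). From 95 h to 8 d Psmb8 fell in both sorts without overlap of the arrays, by 0.99 in Flk1+ cells (SE 0.18, 1.98-fold, limma adjusted p = 0.00036) and by 1.73 in Flk1- cells (SE 0.18, 3.32-fold, limma adjusted p = 3.89e-07). The early differences and both falls held with each of the 8 arrays of a comparison left out in turn. They held under all 8 alternative settings too, except that the 95 h difference had an adjusted p of 0.0994 when only its own groups entered the limma fit. Psmb8 has 1 probe, so the probe with the largest SD could not change its values. The setting with named genes only left them unchanged too.

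**Figure D1:**
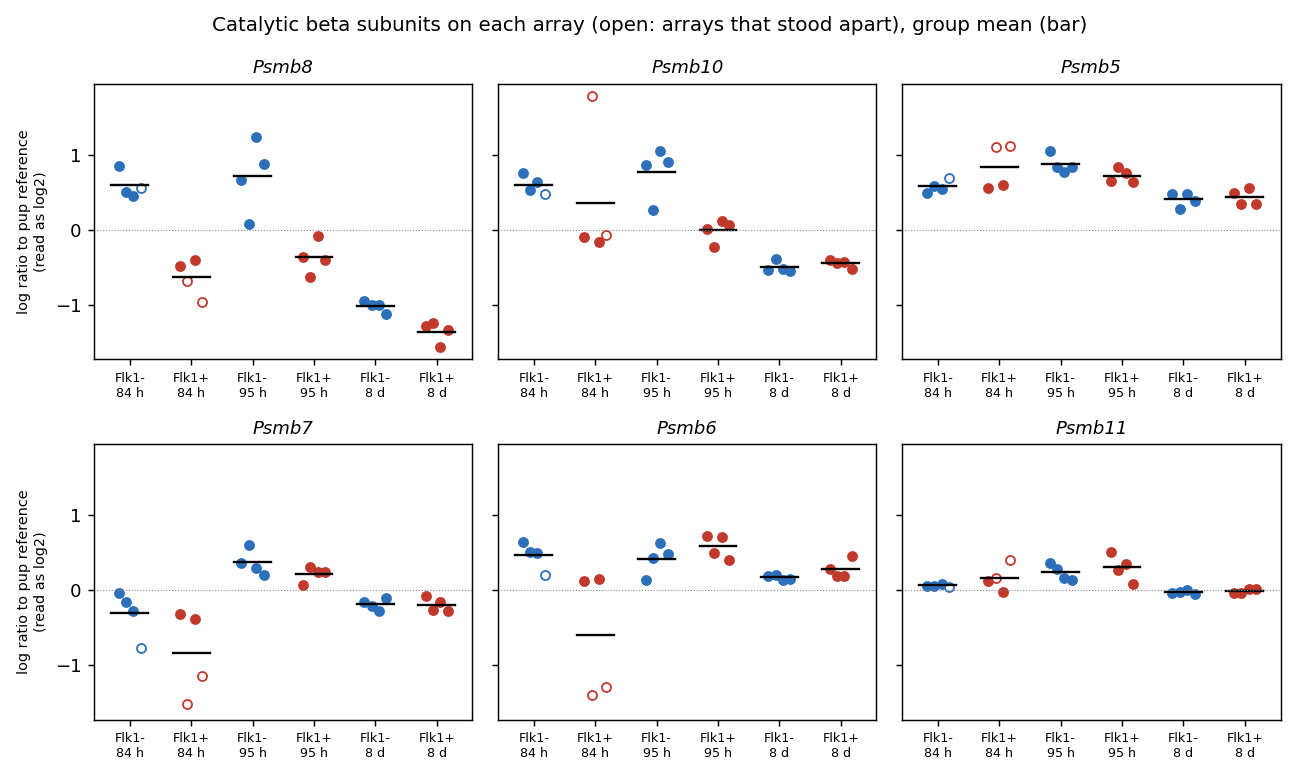
Log2 ratio to the pup reference (vertical axis) of the immunoproteasome subunits Psmb8 and Psmb10, the constitutive active subunits Psmb5, Psmb6 and Psmb7, and the thymus subunit Psmb11 in each of the 6 groups (horizontal axis). Points are arrays, red for Flk1+ and blue for Flk1-, bars are group means, and open points are the 3 arrays that stood apart. Psmb8 in Flk1+ cells lies below Flk1- cells on every array at 84 h and 95 h, and 1 open Psmb10 point at 1.78 lies far above the rest of its group.

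Psmb10, which takes the place of Psmb7 in the immunoproteasome, was called lower in Flk1+ cells at 84 h and 95 h once the 3 arrays named below, all from 84 h, were left out, and fell in Flk1- cells by 8 d. At 84 h the Flk1+ arrays read -0.10, 1.78, -0.17 and -0.07, and the Flk1- arrays 0.76, 0.53, 0.63 and 0.47. Array 2 lay above every Flk1- array while the other 3 lay below all of them. With it, the difference was -0.24 (SE 0.28, limma adjusted p = 0.587). Without Flk1+ array 2 alone, it was -0.71 (limma, adjusted p = 0.00199), and with all 3 arrays that stood apart left out it was -0.77 (adjusted p = 0.00598). At 95 h the Flk1+ arrays read 0.01, -0.23, 0.12 and 0.06 and the Flk1- arrays 0.86, 0.26, 1.05 and 0.90, with no overlap. The 95 h difference of -0.78 (SE 0.28) had an adjusted p of 0.218 in the limma fit over all arrays and of 0.000715 without the 3 arrays. No 95 h array was left out, so the difference itself did not change. Its p-value moved through the spread shared with the 84 h arrays, among them Flk1+ array 2 at 1.78. At 8 d the sorts overlapped, at -0.40 to -0.53 in Flk1+ cells and -0.39 to -0.55 in Flk1- cells. From 95 h to 8 d Psmb10 fell by 1.27 in Flk1- cells (SE 0.28, 2.42-fold, limma adjusted p = 0.00245). In Flk1+ cells the difference was -0.44 (limma, adjusted p = 0.287), with no overlap, and it was called without the 3 arrays (adjusted p = 0.0111).

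On its 1 probe annotated to a single gene, Psmb5, whose place Psmb8 takes in the immunoproteasome, lay above the reference on every array. Its 84 h arrays read 0.55, 1.10, 0.59 and 1.12 in Flk1+ cells and 0.49, 0.58, 0.54 and 0.69 in Flk1- cells. The groups overlapped, and the difference of 0.26 was not called (limma, adjusted p = 0.124). At 95 h the means were 0.72 and 0.87, and at 8 d they were 0.43 and 0.40, again without a called difference between sorts. Psmb5 fell in Flk1- cells from 95 h to 8 d by 0.47 (SE 0.12, limma adjusted p = 0.00709). Another probe, annotated to both Wdr33 and Psmb5 and so left out by the rule, did not share this level. Its Flk1+ and Flk1- means were 0.25 and -0.20 at 84 h, -0.11 and 0.06 at 95 h, and -0.13 and -0.20 at 8 d. Psmb11, the thymus-specific active subunit, stayed near the reference at 84 h with means of 0.16 and 0.07. Its Flk1+ arrays read 0.51, 0.27, 0.35 and 0.09 at 95 h and -0.03, -0.04, 0.02 and 0.02 at 8 d, a fall of 0.31 (SE 0.09, limma adjusted p = 0.0179). A reading this close to 0 is a ratio of sample to reference and says nothing of how bright the probe was.

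Before the rest of the complex is described, 3 arrays need naming, because a large share of the members deviated on them: Flk1+ 84 h arrays 2 and 4 and Flk1- 84 h array 4. They were singled out in earlier results of these data. The members' median was -0.70 and -0.93 on the 2 Flk1+ arrays, against 0.33 and 0.28 on the other 2, and 0.15 on Flk1- array 4 against 0.43 to 0.55. At 95 h it was 0.28 to 0.45 and at 8 d 0.07 to 0.30. On Flk1+ arrays 2 and 4, 22 (52.4%) and 21 (50%) of the 42 members lay more than 1 below the mean of the group's other 2 arrays, against 8.94% and 9.99% of all features. On Flk1- array 4, 9 members (21.4%) lay more than 1 below the other 3, against 1.51% of features. On both Flk1+ arrays at once it was 18 members (42.9%), against 6.85% of features.

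The deviations differed from gene to gene within a role. Psma1, an alpha ring subunit, deviated by -3.95 and -3.53 from the other Flk1+ arrays and by -2.17 from the other Flk1- arrays, the deepest of the members. Psmb1, Psmb2, Psma2, Psma5 and Psmd6 deviated by -2.90 to -2.64 on the 2 Flk1+ arrays. Other subunits of the same rings did not follow. Psma3 deviated by 0.05, 0.02 and -0.13 on the 3 arrays, and Psmb8 by -0.25, -0.53 and -0.04. Psmb5, the ATPase Psmc5, the ubiquitin receptor Psmd4, the activator Psme1 and the inhibitor Psmf1 lay above the other arrays on all 3. In all, 31 members (73.8%, against 21.2% of features) lay below the other arrays of their group on all 3 and 5 (11.9%, against 32% of features) lay above. The cytosolic chaperone genes moved on the same arrays, with medians of -0.62 and -0.56 on Flk1+ arrays 2 and 4 against 0.87 and 0.78 on the other 2. The SD over all features was 0.97 on both Flk1+ arrays and 0.68 to 0.83 on the other arrays of 84 h and 95 h. The part of these 2 measures in the members' deviations was not tested.

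**Figure D2:**
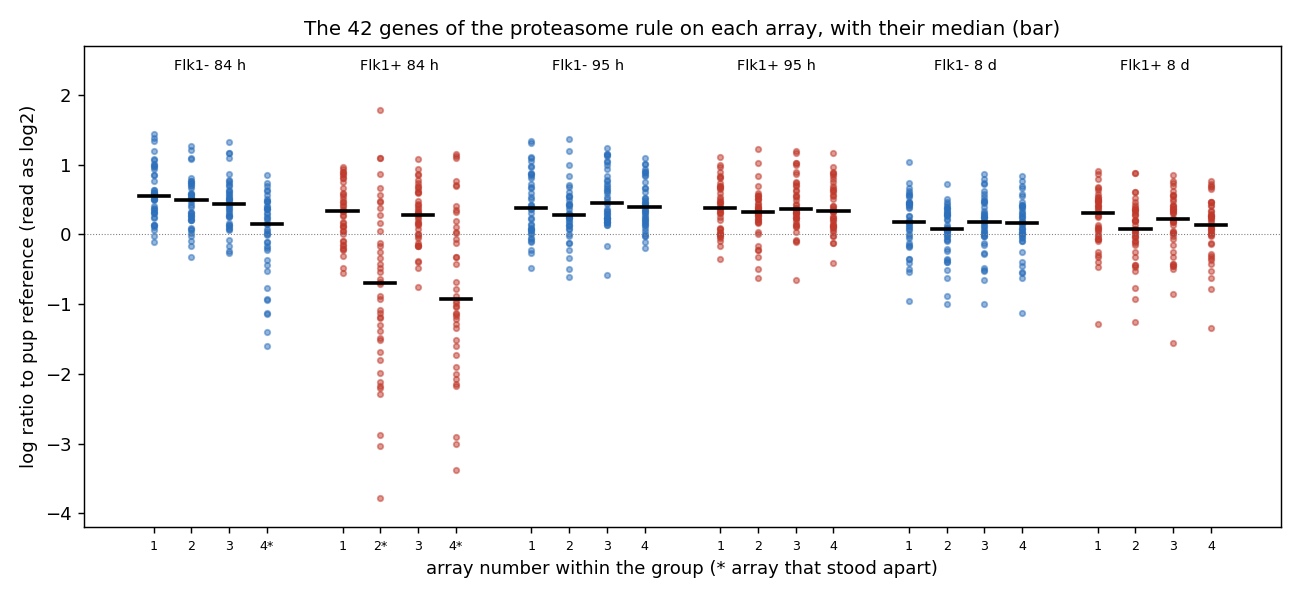
Log2 ratio to the pup reference (vertical axis) of the 42 genes on each of the 24 arrays (horizontal axis, by group), with 1 point per gene and a bar at the median. Asterisks mark the 3 arrays that stood apart, where the medians were -0.70, -0.93 and 0.15 and the lowest genes reached -3.78.

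At 84 h, 13 of the 42 members were lower in Flk1+ than in Flk1- cells and 0 were higher, where 8.18% of all features were lower and 5.3% higher. By limma, 29 had an unadjusted p under 0.05. The share of all features under that unadjusted threshold is not given, here or for the later unadjusted counts, so those counts have no background beside them. The members' median difference was -0.69, against 0.00 over all features. Without the 3 arrays, 4 members were lower and 0 higher (Psmb1, Psmb8, Psmb10 and Psmc3ip), where 4.84% of features were lower and 1.9% higher, and the median difference was -0.20. Psmb1, Psmb8 and Psmc3ip were called in both fits. The number of calls moved with single arrays: it was 2 to 4 without any 1 of Flk1+ arrays 2 or 4 or Flk1- arrays 1, 2 or 3, and 28, 28 and 20 without Flk1+ array 1, Flk1+ array 3 or Flk1- array 4. The share of all features called is not given for fits with a single array left out. These counts, and later ones of that kind, thus have no background beside them.

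At 84 h the alpha ring gave 2 of 8 genes lower in Flk1+ cells over all arrays and 0 of 8 without the 3 arrays. Psma1 read 0.16, -3.78, 0.17 and -3.37 in Flk1+ cells and 0.98, 0.73, 0.62 and -1.40 in Flk1- cells. Its 2 typical Flk1+ arrays lay below its 3 typical Flk1- arrays, so the direction was shared by both kinds of array, but the sizes were not. The difference of -1.94 (SE 0.66) was not called (limma, adjusted p = 0.0523), and without the 3 arrays it was -0.61 (adjusted p = 0.0545). Psma7 read 0.36, -0.54, 0.28 and -0.69 against 0.61, 0.56, 0.58 and 0.39, without overlap, for a difference of -0.69 (SE 0.18, limma adjusted p = 0.0187). Psma4 differed by -0.80 (SE 0.23, limma adjusted p = 0.0266). Psma8, the alpha subunit of the testis core, varied within groups more than between them, from -0.75 to 0.86 in Flk1+ cells at 84 h.

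Among the beta subunits without an active site, Psmb1 was the only 1 of 3 that was lower in Flk1+ cells at 84 h. Its Flk1+ arrays read -0.15, -2.88, -0.15 and -3.01 and its Flk1- arrays 0.54, 0.20, 0.28 and -1.14. The groups overlapped through Flk1- array 4. The difference was -1.52 (SE 0.48, limma adjusted p = 0.0411) over all arrays and -0.49 without the 3 (adjusted p = 0.017), where the 2 remaining Flk1+ arrays lay below the 3 remaining Flk1- arrays. Psmb6, the constitutive subunit with caspase-like activity, read 0.12, -1.39, 0.15 and -1.29 in Flk1+ cells and 0.64, 0.51, 0.50 and 0.21 in Flk1- cells. The groups did not overlap, with a difference of -1.07 (SE 0.25, limma adjusted p = 0.00919) that shrank to -0.42 once those arrays were left out (adjusted p = 0.06). Psmb7, with trypsin-like activity, differed by -0.53 (SE 0.20, limma adjusted p = 0.072).

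In the 19S cap, 3 of 6 ATPases and 2 of 9 non-ATPase subunits were lower in Flk1+ cells at 84 h, and 0 of either without the 3 arrays. The ATPases were Psmc1 (-1.15, SE 0.37, limma adjusted p = 0.0453), Psmc2 (-1.18, SE 0.39, adjusted p = 0.0483) and Psmc3 (-0.96, SE 0.30, adjusted p = 0.0421). Psmc4 and Psmc5 differed by less than their spread. Psmd11, a scaffold subunit of the lid, read 0.00, -0.92, 0.01 and -1.21 against 0.30, 0.47, 0.25 and -0.37, a difference of -0.69 (SE 0.22, limma adjusted p = 0.0446). Psmd8, another lid subunit, read -0.23, -1.20, -0.16 and -1.17 against 0.32, -0.02, -0.08 and -0.01, without overlap (-0.74, SE 0.24, limma adjusted p = 0.047). Of the 20S assembly chaperones 2 of 4 were lower, Psmg2 (-1.04, SE 0.32, limma adjusted p = 0.0364) and Psmg3 (-0.97, SE 0.32, adjusted p = 0.047). The base chaperones Psmd5 and Psmd10, the activator Psme1 and the inhibitor Psmf1 gave 0 calls of 4, with unadjusted p under 0.05 for Psmd10 and Psme1. A probe annotated to both Psme2b and the activator Psme2 was left out by the rule. At 84 h it read 0.08, 0.44, 0.09 and 0.15 in Flk1+ cells and 0.84, 0.88, 0.66 and 0.78 in Flk1- cells. Its Flk1+ and Flk1- means were 0.05 and 0.69 at 95 h, where arrays overlapped, and 0.30 and 0.01 at 8 d. No test of this probe is given here.

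**Figure D3:**
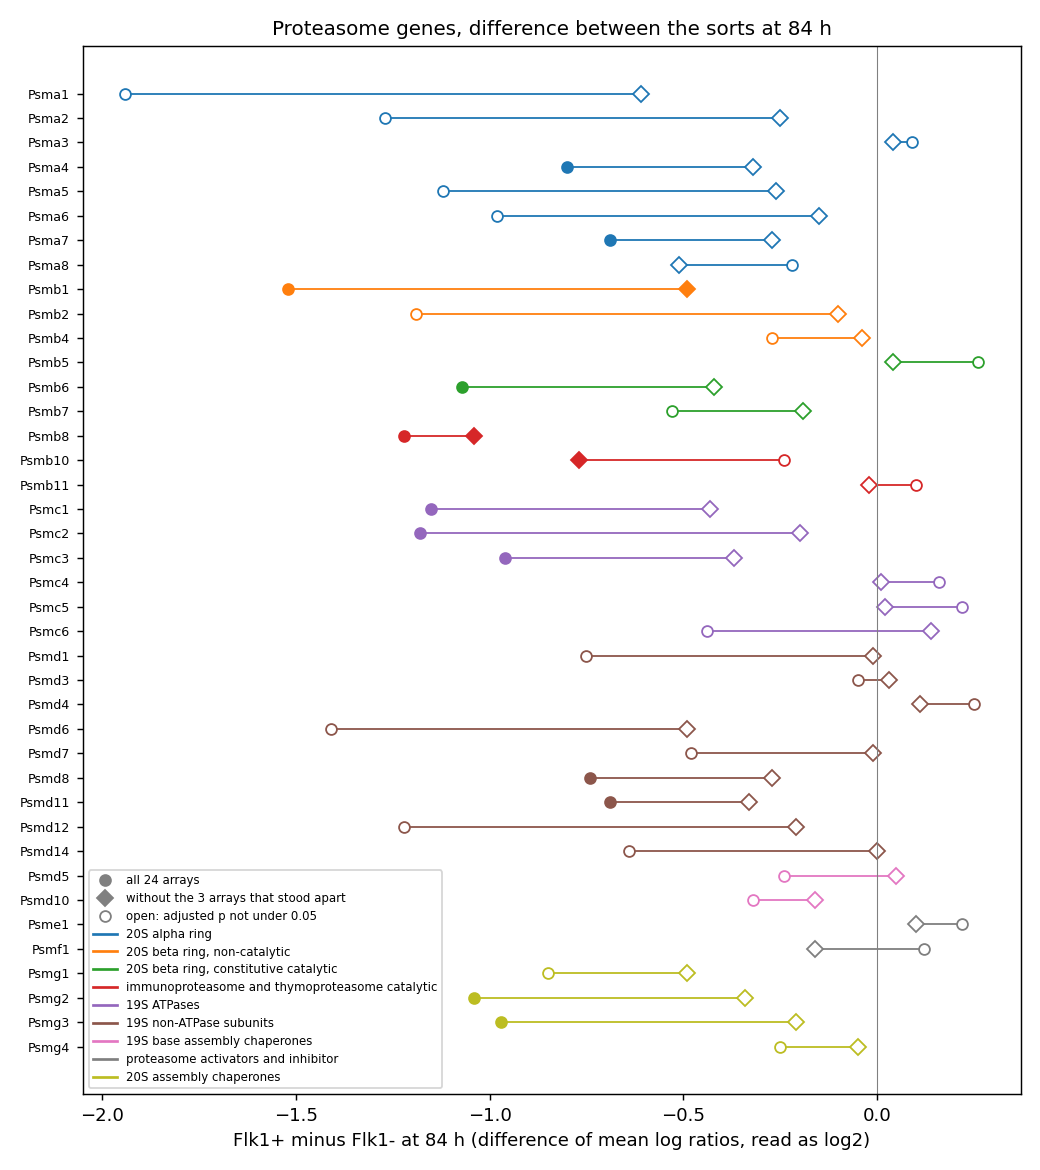
Flk1+ minus Flk1- difference at 84 h in log2 units (horizontal axis) for 40 genes grouped by role (vertical axis). Circles use all 24 arrays, diamonds leave out the 3 arrays that stood apart, and filled symbols have an adjusted p under 0.05. Psmb8 is filled in both, at -1.22 and -1.04, while Psma1 moves from -1.94 to -0.61.

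At 95 h and 8 d few members were called between the sorts, and those at 95 h were inducible subunits. At 95 h 1 member was lower (Psmb8) and 0 were higher, where 1.37% of features were lower and 0.659% higher, with a members' median difference of 0.02. By limma, 2 had an unadjusted p under 0.05, Psmb8 and Psmb10, and both were called without the 3 arrays, where 2.56% of features were lower and 1.44% higher. At 8 d 0 members were called, and by limma 0 had an unadjusted p under 0.05. The background there was 0.149% of features higher and 0.224% lower, and 0.464% and 0.522% without the 3 arrays, again with 0 members called. At 8 d array weights gave 2 calls, Psma7 higher and Psmb8 lower in Flk1+ cells, and the fit on only these groups gave Psma5 higher and Psmb8 lower. Of the constitutive core at 8 d, Psma1 had a mean of 0.29 in each sort, Psmb4 0.38 in Flk1+ and 0.33 in Flk1- cells, and Psmc5 0.28 and 0.27.

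The change of the sort difference between times was tested as an interaction. From 84 h to 95 h 0 members were called (background 0.00573% of features), with 16 at an unadjusted p under 0.05 by limma, and 0 without the 3 arrays (background 0.178%). From 95 h to 8 d 0 were called (background 0.533%), with 2 at an unadjusted p under 0.05 by limma. Without the 3 arrays 1 was called (background 1.8%), Psmb10, whose sort difference moved by 0.83 (SE 0.18, limma adjusted p = 0.0191). For Psmb8 this move was 0.74 (SE 0.25, limma adjusted p = 0.344), 0.176 as an adjusted p without the 3 arrays and 0.0376 without Flk1- 95 h array 2 alone. The smaller sort difference of Psmb8 at 8 d is thus not shown to differ from that at 95 h in the fit over all arrays.

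Between 84 h and 95 h in Flk1+ cells, 17 members were higher at 95 h and 0 lower, where 11.2% of features were higher and 8.62% lower. The members' median difference was 0.67. This comparison shares the Flk1+ 84 h arrays with the sort comparison above, and it rested on the same 2 arrays: without the 3 arrays 2 members were called, both higher, where 3.98% of features were higher and 1.47% lower, and the median difference was 0.08. The count was 7 and 5 without Flk1+ 84 h array 2 or 4, 27 and 28 without array 1 or 3, and 11 without Flk1+ 95 h array 3. The 2 genes called without the 3 arrays, a count near its background, were the constitutive active subunits Psmb6 and Psmb7. Psmb6 read 0.73, 0.50, 0.71 and 0.40 at 95 h, above all its 84 h arrays, a rise of 1.18 over all arrays (SE 0.25, limma adjusted p = 0.00505) and of 0.45 without the 3 (adjusted p = 0.0402). Psmb7 read -0.31, -1.51, -0.38 and -1.14 at 84 h and 0.07, 0.31, 0.24 and 0.24 at 95 h, a rise of 1.05 (SE 0.20, limma adjusted p = 0.00258) and of 0.56 without the 3 (adjusted p = 0.00639). Psma1 turned from a called 1.86 (limma, adjusted p = 0.0498) to -0.01 without them.

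In Flk1- cells the same interval gave 0 calls, where 1.06% of features were higher and 0.585% lower. By limma, 3 members had an unadjusted p under 0.05 (Psmb5, Psmb7 and Psme3ip1), all higher at 95 h. Leaving out Flk1- 95 h array 3 alone gave 1 call. Without the 3 arrays 2 were higher, where 2.4% of features were higher and 1.43% lower. They were Psmb5, with a difference of 0.34 (limma, adjusted p = 0.0339), and Psmb7, with 0.52 (adjusted p = 0.00611). Psmb7 in Flk1- cells read -0.03, -0.16, -0.27 and -0.77 at 84 h and 0.37, 0.61, 0.30 and 0.21 at 95 h, without overlap. It was thus higher at 95 h in both sorts once the 3 arrays were left out.

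From 95 h to 8 d Psmb8 and the lid subunit Psmd11 fell in both sorts. In Flk1+ cells 4 members were lower at 8 d and 0 higher, where 9.31% of features were lower and 12.8% higher, with a members' median difference of -0.24 against -0.01 over all features. They were Psmb8, Psmb11, the ATPase Psmc4 and Psmd11. In Flk1- cells 4 were lower and 0 higher, where 7.78% of features were lower and 9.88% higher, with a median of -0.23 against -0.03. They were Psmb8, Psmb10, Psmb5 and Psmd11. With quantile normalization the split was 8 lower and 3 higher in Flk1+ cells (Psma7, Psmb4 and Psmd5) and 8 lower and 2 higher in Flk1- cells (Psmb4 and Psmc6). The members' median difference under that setting was -0.11 in Flk1+ and -0.15 in Flk1- cells, against -0.03 and -0.05 over all features. The SD over all features was 0.69 to 0.77 on the 95 h arrays and 0.55 to 0.62 on the 8 d arrays. The part of this narrower spread in the members' falls was not tested. Leaving out Flk1+ 8 d array 2 or Flk1+ 95 h array 1 gave 2 calls in Flk1+ cells.

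In human embryonic stem cells PSMD11 is known for a high level that goes down on differentiation. Undifferentiated stem cells were not among the groups measured. Here Psmd11 read 0.43, 0.22, 0.64 and 0.33 in Flk1+ cells at 95 h and -0.47, -0.53, -0.45 and -0.37 at 8 d. All arrays went from above the reference to below it. The fall was 0.85 (SE 0.22, 1.81-fold, limma adjusted p = 0.0079). In Flk1- cells the arrays went from 0.22, 0.23, 0.83 and 0.46 to -0.35, -0.24, -0.28 and -0.45, a fall of 0.77 (SE 0.22, 1.70-fold, limma adjusted p = 0.0193). The earlier interval did not run down: in Flk1+ cells Psmd11 was called higher at 95 h than at 84 h over all arrays. That rise was not called without the 3 arrays. Psmc4 in Flk1+ cells went from 0.47, 0.38, 0.30 and 0.23 to 0.07, -0.04, 0.18 and -0.01, a smaller fall of 0.30 without overlap (SE 0.10, limma adjusted p = 0.0323).

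No 84 h array enters these late differences directly, but the 84 h arrays set the shared estimate of the spread. Without the 3 arrays the SEs were smaller and the counts larger: 17 members lower and 0 higher in Flk1+ cells, where 15.9% of features were lower and 17.7% higher, and 14 lower and 1 higher in Flk1- cells, where 14.6% were lower and 14.6% higher. Of these, 11 were lower in both sorts, 64.7% of the 17 in Flk1+ cells and 78.6% of the 14 in Flk1- cells: Psmb5, Psmb7, Psmb8, Psmb10, Psmb11, Psmc1, Psmc5, Psmd6, Psmd11, Psmd14 and Psmg1. The share of all features lower in both sorts is not given here, so this overlap is a description of the members only. By role, the 17 lower in Flk1+ cells took in 3 of 3 constitutive active subunits, 3 of 3 inducible or thymus subunits, 4 of 6 ATPases, 6 of 9 non-ATPase subunits and 1 of 4 assembly chaperones. The alpha ring gave 0 of 8 and the other beta subunits 0 of 3. In Flk1- cells the alpha ring gave 1 of 8. Psmd14, the deubiquitinase of the lid, read 0.81, 0.30, 0.90 and 0.64 at 95 h and -0.09, -0.33, -0.32 and -0.31 at 8 d in Flk1+ cells, without overlap, for a difference of -0.93 that was called without the 3 arrays (limma, adjusted p = 0.000165) and not with them (adjusted p = 0.095). The 1 member that was higher at 8 d was the ATPase Psmc6 in Flk1- cells, at 0.46 (limma without the 3 arrays, adjusted p = 0.0166).

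**Figure D4:**
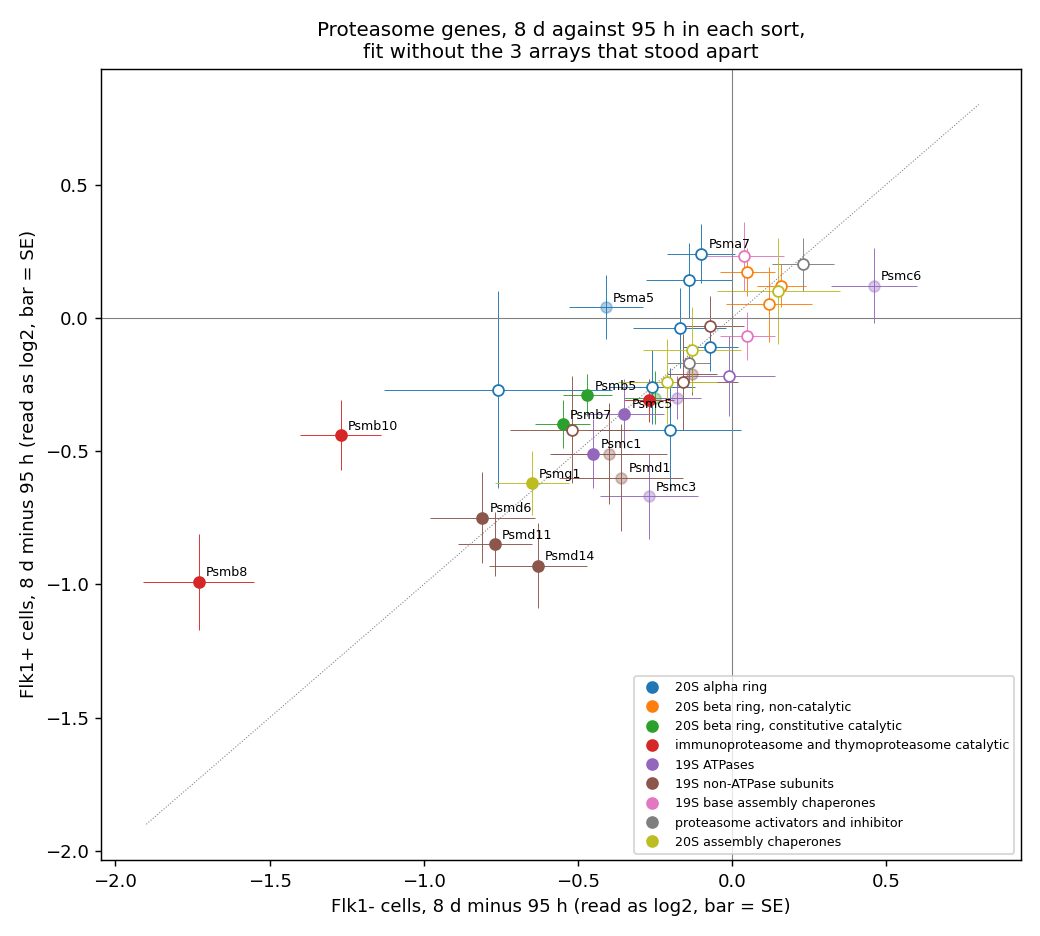
Difference 8 d minus 95 h in log2 units in Flk1- cells (horizontal axis) and Flk1+ cells (vertical axis) for 40 genes, from the fit without the 3 arrays that stood apart. Bars are SEs, filled points were called in both sorts, pale points in 1 and open points in neither, and the dotted line marks equal differences. Psmb8 (-1.73 and -0.99) and Psmb10 (-1.27 and -0.44) lie farthest toward lower values in Flk1- cells.

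Genes that work with the immunoproteasome in antigen presentation, and genes induced by interferon, were followed beside Psmb8. Of 14 interferon response genes, 4 were lower and 1 higher in Flk1+ cells at 84 h, 3 lower and 1 higher at 95 h, and 0 were called at 8 d. Among all features 8.18% were lower and 5.3% higher at 84 h, and 1.37% and 0.659% at 95 h. Without the 3 arrays the 84 h count was 3 lower and 1 higher, where 4.84% of features were lower and 1.9% higher. The list did not move in 1 direction from 95 h to 8 d: 6 rose and 2 fell in Flk1+ cells, where 12.8% of features rose and 9.31% fell, and 4 rose and 3 fell in Flk1- cells, where 9.88% rose and 7.78% fell. Irf1, a transcription factor induced by interferon-gamma that activates immunoproteasome genes, read 0.12, -0.62, 0.11 and -0.36 in Flk1+ cells and 0.79, 0.57, 0.74 and 0.47 in Flk1- cells at 84 h. The groups did not overlap, and the difference was -0.83 (SE 0.13, limma adjusted p = 0.000251). At 95 h Irf1 differed by -0.67 (limma, adjusted p = 0.0042) and at 8 d by 0.01, and from 95 h to 8 d it fell by 0.59 in Flk1+ cells (adjusted p = 0.00196) and by 1.28 in Flk1- cells (adjusted p = 2.62e-07). Bst2, an interferon-induced membrane protein, differed by -2.28 at 84 h (limma, adjusted p = 9.21e-06) and by -1.82 at 95 h (adjusted p = 0.000291). Gbp2, a GTPase induced by interferon, differed by -0.78 at 95 h (limma, adjusted p = 0.000798). Like Irf1, Bst2 and Gbp2 fell in Flk1- cells from 95 h to 8 d, by 1.91 (limma, adjusted p = 2.26e-05) and 0.67 (adjusted p = 0.000567). The genes that rose over that interval in Flk1+ cells were Irf8, Stat2, Ifnar1, Jak2, Isg15 and Ifit2, and all of these but Irf8 and Isg15 rose in Flk1- cells too. The largest of these rises were those of Ifit2, an antiviral protein, at 0.95 in Flk1+ cells (limma, adjusted p = 9.41e-06) and 0.74 in Flk1- cells (adjusted p = 0.000216). Usp18, which removes the ubiquitin-like Isg15 from proteins, went the other way, 1.88 higher in Flk1+ cells at 84 h (limma, adjusted p = 4.07e-06) and 1.08 at 95 h (adjusted p = 0.00447).

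Of 8 genes of MHC class I antigen processing, 1 was lower in Flk1+ cells at 84 h, 2 at 95 h and 0 at 8 d, and 0 were higher at any of these times, where 8.18%, 1.37% and 0.224% of features were lower. The 84 h count of 1 is near that background. Erap1, which trims peptides in the endoplasmic reticulum, differed by -0.59 at 84 h (SE 0.15, limma adjusted p = 0.0156) and by -0.60 at 95 h (adjusted p = 0.033). Tapbp, which bridges the transporter to class I molecules, differed by -0.66 at 95 h (SE 0.12, limma adjusted p = 0.0033) and fell by 0.94 in Flk1- cells from 95 h to 8 d (adjusted p = 8.65e-06). Tap1, the transporter gene next to Psmb8 in the annotation, differed by -0.32, -0.39 and -0.35 at 84 h, 95 h and 8 d, none of them called (limma, adjusted p = 0.182, 0.366 and 1.0), and Tap2 by -0.15, -0.20 and -0.08. B2m, the light chain of class I molecules, rose from 95 h to 8 d by 0.72 in Flk1+ cells (limma, adjusted p = 0.00277) and by 0.90 in Flk1- cells (adjusted p = 0.000408), while Psmb8 fell. Erap1 rose too in Flk1+ cells, by 0.43 (limma, adjusted p = 0.0411), and Calr in Flk1- cells, by 0.61 (adjusted p = 0.0107). Tapbp in Flk1- cells was the only called fall of this list over that interval. Of all features 12.8% rose and 9.31% fell in Flk1+ cells, and 9.88% and 7.78% in Flk1- cells.

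**Figure D5:**
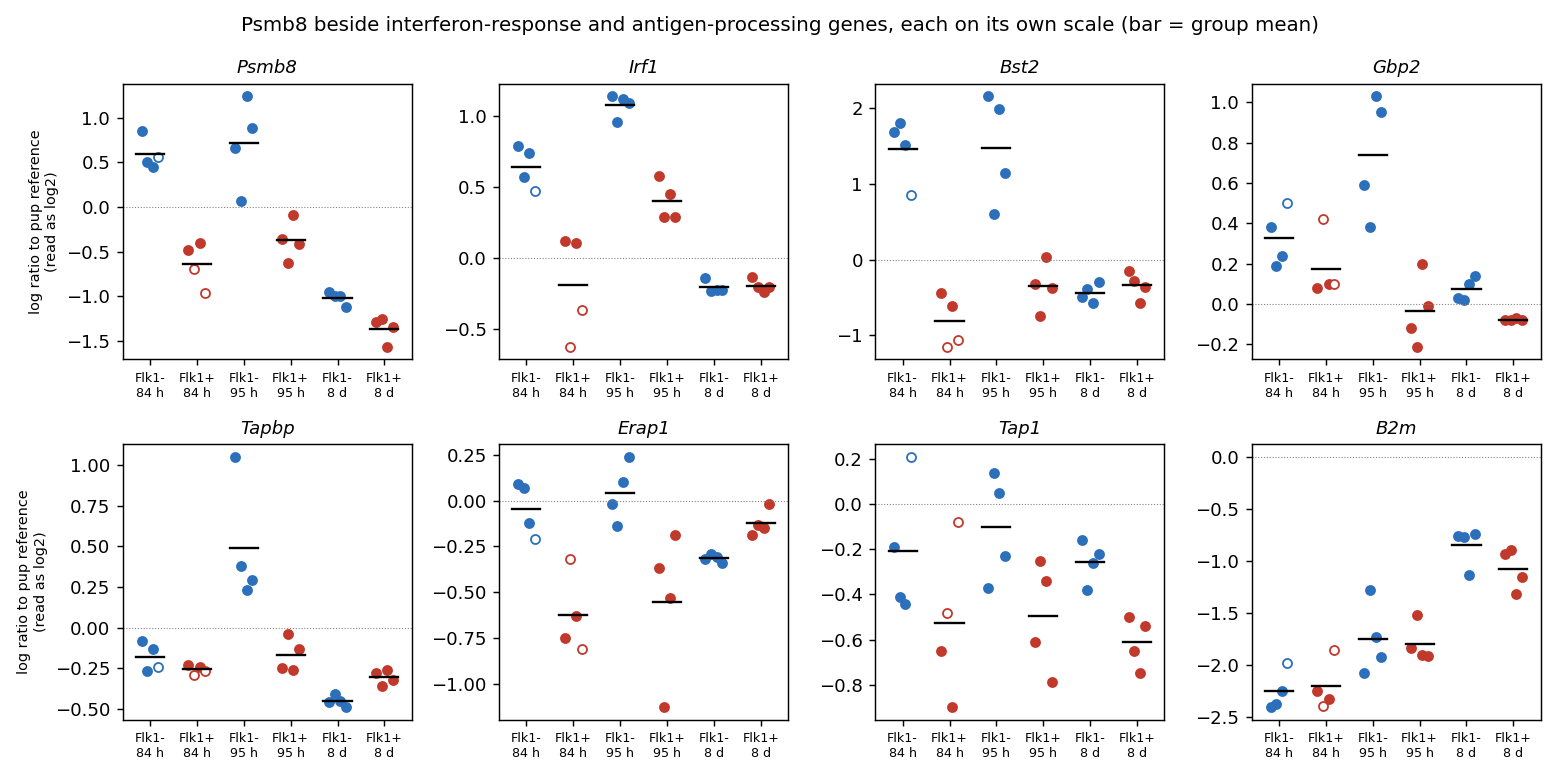
Log2 ratio to the pup reference (vertical axis, each panel on its own scale) of Psmb8, the interferon response genes Irf1, Bst2 and Gbp2, and the antigen processing genes Tapbp, Erap1, Tap1 and B2m in the 6 groups (horizontal axis). Points are arrays, red for Flk1+ and blue for Flk1-, bars are group means, and open points are the 3 arrays that stood apart. Irf1, like Psmb8, lies lower in Flk1+ than in Flk1- cells at 84 h and 95 h and lower at 8 d than at 95 h in both sorts, while B2m is higher at 8 d.

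Markers of other cells were set beside these values. Of 8 measured leukocyte markers, the array medians were -0.83 to -0.24 in Flk1+ and -0.69 to -0.66 in Flk1- cells at 84 h, -0.86 to -0.66 and -0.71 to -0.60 at 95 h, and -0.40 to -0.35 and -0.34 to -0.26 at 8 d. At 84 h 1 of them was lower in Flk1+ cells, where 8.18% of features were: Cd53, a tetraspanin of blood cells, with a difference of -0.55 (limma, adjusted p = 0.0481) and of -0.95 without the 3 arrays (adjusted p = 0.00481). Ptprc, which codes for CD45, differed by -0.61 (limma, adjusted p = 0.259) and by -1.39 without the 3 arrays (adjusted p = 0.0324). These differences of Cd53 and Ptprc run the same way as that of Psmb8, and their part in it was not tested. Over all arrays Fcer1g (0.24), Cd48 (0.16) and Spi1 (0.08) ran the other way at 84 h and were not called. The count of 1 of 8 over all arrays is near the background. From 95 h to 8 d 4 rose in Flk1+ cells (Ptprc, Cd53, Lcp1 and Rac2), where 12.8% of features rose, and 3 in Flk1- cells (Cd53, Lcp1 and Rac2), where 9.88% rose, while Laptm5 fell in both. Psmb8 was lowest at 8 d, when these medians were above those of every earlier array but Flk1+ 84 h array 2. Of 12 pluripotency markers, 8 were lower in Flk1+ cells at 84 h, 4 at 95 h and 0 at 8 d, where 8.18%, 1.37% and 0.224% of features were lower. Without the 3 arrays 5 were lower at 84 h and 6 at 95 h, where 4.84% and 2.56% of features were lower. Their array medians were 0.35 to 0.67 in Flk1+ and 1.51 to 1.76 in Flk1- cells at 84 h, 0.03 to 0.46 and 0.89 to 1.51 at 95 h, and -0.03 to 0.04 and 0.06 to 0.14 at 8 d. In Flk1- cells 8 fell and 1 (Klf4, by a difference of 0.88) rose from 95 h to 8 d, where 7.78% of features fell and 9.88% rose. In Flk1+ cells 3 fell and 1 (Klf2, by a difference of 2.06) rose, where 9.31% fell and 12.8% rose. The medians and Psmb8 were both lower in Flk1+ than in Flk1- cells at 84 h and 95 h, and both were lower at 8 d than at 95 h in Flk1- cells. In Flk1+ cells the middle array median went from 0.57 at 84 h to 0.12 at 95 h and 0.01 at 8 d. The mean of Psmb8 there went from -0.63 to -0.37 and -1.36, and its difference between 84 h and 95 h was not called. The part of these markers in the differences of Psmb8 was not tested.

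The 5 named genes whose pattern over the 6 group means was nearest to that of Psmb8, by the mean absolute difference after centring each gene, were Mapk4 (0.121), Slc7a7 (0.141), Pim2 (0.141), Fst (0.173) and Slc25a33 (0.177). Mapk4, an atypical MAP kinase, had means of 0.12 and 1.22 in Flk1+ and Flk1- cells at 84 h, 0.10 and 1.01 at 95 h, and -0.78 and -0.36 at 8 d. Pim2, a serine-threonine kinase, had 0.82 and 1.59, 0.74 and 1.90, and -0.07 and -0.05. Fst codes for follistatin, which binds activins, and had 0.33 and 2.04, 0.62 and 1.97, and -0.17 and 0.46. The likeness is over 6 means of 4 arrays each and is a description.

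Genes that work with the proteasome outside its own complexes were counted in the same way, against the background at 84 h of 8.18% of features lower and 5.3% higher. Of 8 further cofactors, 1 was lower in Flk1+ cells at 84 h: Uchl5, a deubiquitinase of the 19S cap, with a difference of -1.28 over all arrays (SE 0.29, limma adjusted p = 0.00678) and of -0.78 without the 3 arrays (adjusted p = 0.00668). From 95 h to 8 d, 12.8% of all features rose and 9.31% fell in Flk1+ cells, and 9.88% rose and 7.78% fell in Flk1- cells. Pomp, the maturation factor of the core, was the only one of these cofactors called over that interval. It rose by 0.56 in Flk1+ cells (limma, adjusted p = 0.00693). Of 11 genes of ubiquitin and delivery to the proteasome, 1 was lower at 84 h, the shuttle factor Rad23b (-0.41). The counts of 1 of 8 and 1 of 11 are near the background, and the Rad23b call did not hold without the 3 arrays. Ngly1, a deglycosylating enzyme that acts on Nfe2l1, rose from 95 h to 8 d by 1.62 in Flk1+ and 1.37 in Flk1- cells. In the same ubiquitin list Ube2n fell in Flk1+ cells, with a difference of -0.48 (limma, adjusted p = 0.0299). Bag6 rose in Flk1- cells, with a difference of 0.57 (limma, adjusted p = 0.00745). No other gene of that list was called over this interval in the fit over all arrays. Of 9 genes of the Nfe2l1 and Nfe2l2 list, 3 were lower in Flk1+ cells at 84 h, the antioxidant genes Gclm, Hmox1 and Txnrd1. When the 3 arrays were left out 2 were lower, Gclm (-0.96, limma adjusted p = 4.85e-05) and Nqo1 (-0.44, adjusted p = 0.0158), where 4.84% of features were. Nfe2l1, the transcription factor that raises proteasome genes when proteasome activity is short, differed between sorts by -0.12, -0.04 and -0.06 at the 3 times, none called. Of 15 cytosolic chaperones, 5 were lower and 1 higher in Flk1+ cells at 84 h, and 1 (Cct5) was lower without the 3 arrays.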

How the data were processed

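The deposited values give a log ratio per probe and array for 20280 probes on 24 arrays (values -6.42 to 5.33). These are treated as log2 values of the Cy5 sample over the Cy3 pup reference, dyes per the labels, because the deposited table does not state the log base or direction. Another base would multiply every difference by 1 factor and leave signs and p-values as they are. Sample RNA was isolated with a Qiagen kit and reference RNA with guanidinium, and both were amplified, per the labels' protocols. Feature extraction, background correction and normalization are not given in the sources used here, and no array had the dyes exchanged. Each deposited array had a mean of 0, and its median (0.046 to 0.197) was set to 0 here.

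GEO's platform annotation gave 1 gene for 11813 probes, several for 559 and none for 7908, and 11782 Entrez identifiers were found in the RefSeq genes. Probes of a gene were averaged (2180 genes), which left 8973 named genes and 8467 unnamed probes. Tests used limma 3.58.1 (lmFit and eBayes, R 4.3.3, data.table version 1.17.8) in 1 fit with a mean per group (18 residual and 3.41 prior degrees of freedom). Tables and figures used Python 3.11.15 with pandas 2.3.3, numpy 2.4.6 and matplotlib 3.10.9, and the fit was tested on simulated data. Precision is limited by the 4 arrays of a group.

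Same-numbered Flk1+ and Flk1- samples deviated together at 95 h (correlations 0.14, 0.41, 0.42 and 0.11) and at 8 d (0.29, 0.36, 0.44 and 0.15). This is a hint of pairs from the data and not from the labels. At 84 h the correlations were mixed (0.34, -0.13, 0.31 and 0.53). The main fit used no pairs at any time. Only the replicate block did so, pairing same-numbered samples at every time, 84 h included, for differences between sorts. For changes over time within a sort, it took the number as a random block. The alternatives were the values as deposited, quantile normalization, the probe with the largest SD, array weights, only the groups compared, named genes only, a replicate block, and leaving out 1 array or the 3 arrays that stood apart. The members, the 3 arrays and the gene lists were chosen with earlier results of these data known. Every member may be named, with Kdr, the called genes of each list, up to 4 others of it and the 5 genes nearest to Psmb8. Promoters are RefSeq's on GRCm38.p6.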

Additional observations from a re-analysis of the deposited data

Results flagged for a closer look

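In 19 of 252 groups of 4 arrays (7.5%), the highest or lowest array of a member lay so far from the nearest other that the gap exceeded Dixon's critical value, which chance alone does in about 1 of 20 groups. Flk1- 84 h array 4 gave 5 of them: Psma1 at -1.40, Psma2 at -0.20, Psma6 at -0.11, Psmc2 at -0.11 and Psmd12 at 0.37, each the lowest of its group. Psmb10 on Flk1+ 84 h array 2 stood highest at 1.78. This rule looks at 1 array and its nearest neighbour, so it misses 2 arrays of a group that deviate together. Flk1+ 84 h arrays 2 and 4 did so for 18 members, both more than 1 below the other 2. The lack of flags for such genes there does not show that those arrays were typical. Psmb4 stood lowest on Flk1- 84 h array 2 at 0.02. At 95 h in Flk1+ cells, array 2 was lowest for Psma2 (0.30) and Psma6 (-0.22), and array 1 was highest for Psma4 (0.84). At 95 h in Flk1- cells, array 2 was lowest for Psma6 (-0.34) and Psmg3 (0.14), array 1 was lowest for Psmb4 (-0.05) and highest for Psmd6 (0.50). At 8 d in Flk1+ cells, array 4 was lowest for Psma7 (0.46) and Psmf1 (0.11), and array 1 was highest for Psmd14 (-0.09). At 8 d in Flk1- cells, array 4 was highest for Psma8 (-0.01) and array 2 for Psmb10 (-0.39).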

How the results depend on the processing

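At 84 h the 13 members lower in Flk1+ cells became 4 with array weights, 1 with only the groups compared, 5 with quantile normalization, 4 without the 3 arrays that stood apart and 24 with the replicate block, and 2 to 28 with 1 array left out. At 95 h the 1 call became 2 with array weights, 2 without the 3 arrays and 0 with only the groups compared. At 8 d the 0 calls became 2 with array weights and 2 with only the groups compared. From 84 h to 95 h in Flk1+ cells the 17 calls became 1 with array weights, 0 with only the groups compared, 10 with quantile normalization and 2 without the 3 arrays, and 5 to 28 with 1 array left out, and Psma1 turned to -0.01 without the 3 arrays. In Flk1- cells the 0 calls became 1 with quantile normalization, 5 with array weights and 2 without the 3 arrays, and 0 to 1 with 1 array left out. From 95 h to 8 d in Flk1+ cells the 4 calls became 13 with array weights, 14 with only the groups compared, 11 with quantile normalization and 17 without the 3 arrays, and 2 to 4 with 1 array left out. In Flk1- cells the 4 became 16 with array weights, 10 with only the groups compared, 10 with quantile normalization, 7 over named genes only and 15 without the 3 arrays, and 3 to 5 with 1 array left out. The change of the sort difference from 95 h to 8 d gave 2 calls with array weights, 1 without the 3 arrays and 0 to 1 with 1 array left out. The cause of these shifts was not tested. The share of all features called is given only for the fit over all arrays and the fit without the 3 arrays. Counts from the other fits have no background beside them and do not show whether a shift is particular to the members. The replicate block moved no other count of calls by over 1.5 times, and the probe with the largest SD and the values as deposited moved no count of calls by that much. Other background corrections, a filter on dim probes and a slide block were not run, since scanner files were not analysed here.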

Other observations

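The 2 probes of Psmc3ip, the recombination cofactor that matched only by symbol, disagreed on the arrays that stood apart: on Flk1+ 84 h arrays 2 and 4 they read -1.59 and -1.54 on 1 probe and 1.26 and 1.74 on the other. Psma8, the alpha subunit of the testis core, spread widely by array number at 95 h, with 0.31, 0.50, -0.66 and -0.13 on Flk1+ arrays 1 to 4 and 0.96, 1.36, -0.58 and -0.19 on Flk1- arrays 1 to 4. Arrays 1 and 2 lay above arrays 3 and 4 in both sorts. Psme3ip1, the other match by symbol, stayed between -0.43 and 0.98 on all arrays, with the top value on Flk1- 95 h array 1.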
